A study of Rattus norvegicus with 4 samples.

Results

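The nuclei described here are D1 medium spiny neurons of the rat nucleus accumbens that carry transcripts of Htr4, the serotonin 4 receptor. They were chosen from raw counts of unique molecular identifiers (UMIs, 1 per captured transcript). A nucleus with 200 or more genes entered the D1 set with at least 2 UMIs of Drd1 plus Ebf1, at most 1 UMI of Drd2 plus Adora2a, at least 5 UMIs of Pde10a, at most 1 UMI of Casz1 plus Otof and at most 4 UMIs of Grm8. Of those, a nucleus was a member with 2 or more Htr4 UMIs and more Htr4 than Reln UMIs. This gave 263 members among 2837 gated D1 nuclei (9.27%) and 26228 barcodes in all (1.00%). The comparison sets were built in the same way: 1055 D1 nuclei with 2 or more Reln UMIs and more Reln than Htr4 (Reln-rich), and 3178 D2 nuclei. The 10 genes of the rule are not reported as results.

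Adult Sprague-Dawley rats of 90 to 120 days and both sexes received saline, or cocaine at 20 mg/kg, by intraperitoneal injection once a day for 7 days, and tissue was collected 1 hour after the final dose. A 2 mm punch centred on the accumbens core was taken, and tissue of 4 rats went into each library, 16 rats in all. There was 1 library for each sex and treatment, so each treatment had 2 libraries and animals cannot be told apart within a pool. The labels name no transgene or other treatment. The title of the series speaks of D1 subpopulations that differ in how their transcription responds to cocaine.

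Medium spiny neurons are the GABAergic projection neurons of the striatum. Those of the D1 type express the D1 dopamine receptor, which raises cyclic AMP, and usually the peptides substance P (Tac1) and dynorphin (Pdyn), and those of the D2 type express the D2 receptor and enkephalin (Penk). HTR4 is also coupled to the G protein that stimulates adenylyl cyclase. Cocaine blocks the dopamine transporter, and dopamine acting on D1 receptors induces immediate-early genes, a class switched on within minutes to hours of stimulation.

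The 4 libraries held 6213 to 7265 barcodes and 31484217 to 40737786 UMIs. Values per library are given below in 1 order: females after saline, females after cocaine, males after saline and males after cocaine. Members numbered 43, 72, 87 and 61, with median depths of 11394, 8926.5, 9098 and 8077 UMIs. Summed over members, the libraries held 516133, 692419, 822447 and 535070 UMIs. Across libraries 81 barcodes occurred more than once, 2 of them barcodes of members, and no barcode was a member in more than 1 library.

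The spiny neuron genes outside the rule were present in most members. Rgs9, a regulator of G protein signalling abundant in striatal projection neurons, had a median of 6 UMIs per member and was seen in 255 of 263. Foxp2 had a median of 9 and was seen in 238, and Bcl11b (Ctip2) had a median of 3 and was seen in 241. Ppp1r1b, another marker of spiny neurons, was weaker, with a median of 1 UMI. It was seen in 194 members, and 150 members had fewer than 2 of its UMIs. Drd1 itself had no UMI in 36 members, which entered through Ebf1. Markers of other cells were low in the sums: the 6 interneuron markers together stood at 3.74 to 12.2 counts per 1000000 UMIs (CPM), with Chat at 0 in all 4 libraries, and Slc17a7 and Slc17a6 of glutamatergic neurons were both at 0 in 3 libraries and at 8.67 CPM together in the cocaine female library. Penk plus Gpr6 of D2 neurons stood at 5.81 and 8.67 CPM in the female and 41.3 and 48.6 CPM in the male libraries. The 3 oligodendrocyte markers stood at 35.3 CPM in the saline male and 134 to 186 CPM in the other libraries.

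Not every member had the full profile: 23 had fewer than 2 Rgs9 UMIs and 42 fewer than 2 of Foxp2. The member that stood furthest apart by Erbb4 was a saline male nucleus of 15772 UMIs, with 1 Rgs9, 0 Foxp2 and 0 Ebf1 UMIs beside 2 of Drd1 and 430 UMIs of Erbb4, the neuregulin receptor that is prominent in interneurons. The median of Erbb4 over members was 7 UMIs, and the second highest member had 89. The classic interneuron genes Sst, Npy, Pthlh, Chat, Lhx6 and Vip were at 0 in it, and Kit had 4 UMIs. It was not removed by the doublet filter, and 8 of the cocaine results below have their highest saline male count in it.

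The threshold on Htr4 lies within a continuous range. Among members 83 had 2 Htr4 UMIs, 65 had 3 or 4 and 115 had 5 or more, with a maximum of 30. Reln was at 0 in 229 members (87.1%), and 18 members had exactly 1 UMI more of Htr4 than of Reln, while the 83 with 2 Htr4 UMIs were at the minimum count. Just outside were 125 D1 nuclei with 1 Htr4 and 0 Reln UMIs, and 60 with 2 or more Htr4 UMIs but as many or more of Reln. Htr4 was not a gene of D1 neurons alone: 47.2% of D2 nuclei had 2 or more Htr4 UMIs, and their summed level was 278 CPM. The remaining gated D1 nuclei stood at 15.6 CPM, a level that the rule held low. It took the members out of that set, while D2 nuclei had no Htr4 limit. These values describe the selection and carry no test.

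Members were then described against Reln-rich D1 nuclei of the same gate. A gene counted as past the fold when its ratio was at least 2 in each of the 4 libraries and its level averaged at least 10 CPM in the set where it was higher. Of 9123 genes at that level in either set, 97 were higher in members (1.06%) and 23 were lower (0.252%), 4 of the 120 being genes of the rule. The sets were cut by Htr4 and Reln, so nothing is read from these shares and no test was made. The values are those of 4 libraries.

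Of the 4 listed markers outside the rule, 2 were past the fold. Sulf1, an enzyme that trims sulfate from heparan sulfate on the cell surface, stood at 96.9, 120, 119 and 129 CPM in the members of the 4 libraries and at 19.4, 19.0, 38.5 and 25.1 CPM in the Reln-rich nuclei. Trhde, which degrades thyrotropin-releasing hormone, stood at 34.9, 31.8, 74.2 and 54.2 CPM against 14.8, 6.06, 8.01 and 3.70 CPM. The members were above the Reln-rich nuclei for both genes in every library, and the sets did not overlap. Trhde averaged 37.9 CPM in D2 nuclei, so it set members apart from Reln-rich D1 nuclei more than from D2 nuclei. Fstl4, a follistatin-like secreted protein, was close to even, at 775 ± 46.4 CPM (SD, n = 4) in members and 666 ± 55.0 CPM in Reln-rich nuclei.

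Nts, the precursor of the peptide neurotensin, was not uniform over members. It stood at 29.1, 147, 26.7 and 39.2 CPM in members against 1.41, 25.5, 4.50 and 40.3 CPM in Reln-rich nuclei, and the cocaine male library had no difference (log2 ratio -0.01). Its UMIs came from 34 of the 263 members (4, 6, 13 and 11 per library), and in the cocaine female library 62 of 102 UMIs lay in 1 nucleus. At an equal depth of 5000 UMIs per nucleus 8.91% of members had an Nts UMI (exact 95% interval 5.74% to 13.1%), beside 2.79% of Reln-rich, 6.68% of D2 and 1.65% of glutamatergic nuclei. Without thinning the shares were 12.9%, 3.60%, 8.78% and 1.65%. Among the remaining gated D1 nuclei Trhde averaged 10.0 CPM, but Sulf1 averaged 79.5 CPM (69.0 to 103 over libraries), which overlaps the members. Pooled over libraries, Sulf1 stood at 90.2 CPM in D1 nuclei with neither Htr4 nor Reln and at 77.5 CPM in members with 2 Htr4 UMIs. Sulf1 was thus low in Reln-rich nuclei and did not set members apart from the other D1 nuclei, Fstl4 did not separate the sets, and Nts was seen in a minority of members.

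**Figure D1:**
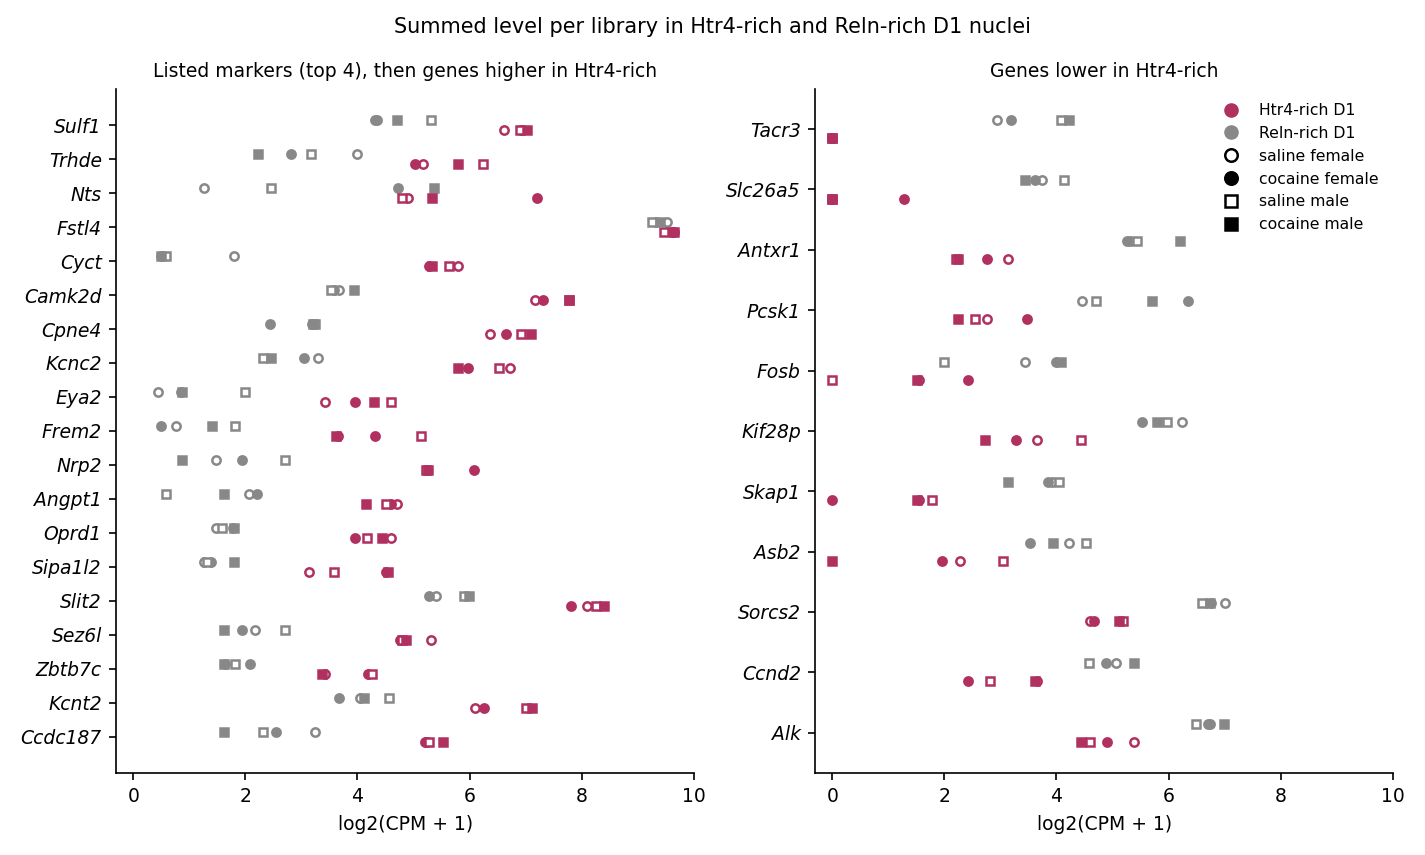
Level of the listed markers and of the described genes named by rule, as log2(CPM + 1) of the UMIs summed over the Htr4-rich (red) or Reln-rich (grey) D1 nuclei of a library, 1 point per library. Within each library the members are on the same side of the Reln-rich nuclei for each gene shown except Nts. For the genes named by rule this follows from the choice by fold. Tacr3 sits at 0 in the 4 member sums.

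Among intracellular signalling genes the clearest was Camk2d, the delta subunit of calcium/calmodulin-dependent kinase II. Its level was 143, 157, 218 and 219 CPM in members and 10.5 to 14.4 CPM in Reln-rich nuclei, with log2 ratios of 3.61 to 4.34. At 5000 UMIs, 46.9% of members had a Camk2d UMI against 3.88% of Reln-rich nuclei (56.3% and 6.26% without thinning). The remaining gated D1 nuclei stood between, at 67.8 CPM, and D2 nuclei at 25.1 CPM. Cpne4, a copine that binds membranes in the presence of calcium, was at 109 ± 24.0 CPM (SD, n = 4) in members and 7.33 ± 1.93 CPM in Reln-rich nuclei. Sipa1l2, which activates the GTPase of Rap proteins, was low in both, at 15.7 and 1.75 CPM.

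Among receptors, Oprd1, the delta opioid receptor, was higher in members in every library, with levels of 23.2, 14.4, 17.0 and 20.6 CPM against 1.77 to 2.47 CPM. D2 nuclei carried far more, at 124 CPM. Oprm1, the mu opioid receptor, went the other way without passing the fold in each library (20.5 ± 9.53 against 39.9 ± 8.10 CPM, SD, n = 4). Cnr1, the cannabinoid 1 receptor, was lower in members, at 21.0 ± 3.44 against 61.9 ± 6.95 CPM. Tacr3, the neurokinin 3 receptor, had 0 UMIs in the 2566069 UMIs of all members and 114 in the 9734117 of Reln-rich nuclei. Set against a floor of 3 UMIs over all members, it was at least 10.0-fold lower. Slc26a5, an anion transporter family protein known as prestin in the inner ear, had 1 UMI in members and 120 in Reln-rich nuclei, a ratio of 0.0316 (exact 95% counting interval 0.000794 to 0.180).

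Other serotonin receptors were described beside Htr4. Of 6 described besides Htr4, none was past the fold, beside 1.06% higher and 0.252% lower of all genes described. With so few genes a count of 0 is near those shares and is not read as a result. Htr2c was lower in members in each library, at 330 ± 55.1 against 584 ± 62.9 CPM (SD, n = 4), Htr2a was higher in each, at 33.0 ± 8.66 against 16.4 ± 5.54 CPM, and Htr6 and Htr1b went both ways among libraries. The dopamine and cyclic AMP list gave 0 of 35 past the fold, also near those shares, with a median log2 ratio of -0.12 beside 0.06 over all genes described. Drd3, the D3 receptor, was at 60.1 ± 17.5 in members and 39.6 ± 5.93 CPM in Reln-rich nuclei. The groups overlap for Drd3, with 40.4 CPM in the lowest member library and 48.0 CPM in the highest Reln-rich library.

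Ion channels and axon guidance genes held most of the listed genes past the fold. Of 23 potassium channel genes described, 5 were higher and 0 lower: Kcnc2 (Kv3.2), Kcnd3 (Kv4.3), Kcnh5, Kcnt2 and Kcnip1, an accessory subunit of Kv4 channels. Kcnd3 was even over libraries, at 242, 205, 198 and 243 CPM against 50.0 to 75.3 CPM. Kcnt2, a sodium-activated channel, was at 67.8, 75.1, 128 and 138 CPM against 11.7 to 22.5 CPM. Kcnc2 was at 105, 62.1, 91.2 and 54.2 CPM, but 38 of its 54 saline female UMIs lay in 1 nucleus. Kcnip1 was seen in 3, 7, 10 and 4 members, and 66 of its 87 saline male UMIs lay in the Erbb4-high nucleus. Of all 9123 genes described, 97 were higher and 23 lower past the fold. The median log2 ratio of the list was 0.02, so the list as a whole did not lean. None of 19 calcium and sodium channel genes and none of 13 glutamate receptor genes was past the fold, and of 12 GABA-A receptor genes only Gabra3 was, in the direction of members.

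Of 33 axon guidance genes described, 6 were higher and 0 lower, and 14 were higher in all 4 libraries against 4 lower in all. Of all 9123 genes described, 97 were higher and 23 lower past the fold, and 1737 were higher and 897 lower in all 4. The median log2 ratio of the list was 0.31 beside 0.06 over all genes. Slit2, a secreted ligand of Robo receptors, stood at 273, 224, 306 and 336 CPM in members against 38.0 to 62.5 CPM. Nrp2, a receptor for class 3 semaphorins, stood at 36.8, 66.4, 36.5 and 37.4 CPM against 0.822 to 5.50 CPM. Sema3a, a ligand of neuropilins, was at 86.9 ± 29.4 against 22.6 ± 4.78 CPM (SD, n = 4), Ntng1 (netrin G1) at 72.0 ± 23.7 against 13.8 ± 2.95 CPM, and the receptors Epha3 and Unc5d at 203 and 57.3 against 76.8 and 13.2 CPM. D2 nuclei had more Unc5d (369 CPM) and Epha3 (258 CPM) than members had.

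The highest ratio of any named gene was that of Cyct, which encodes the testis form of cytochrome c. It stood at 54.2, 37.5, 48.6 and 39.2 CPM in members against 2.47, 0.404, 0.500 and 0.411 CPM in Reln-rich nuclei, log2 ratios of 4.38 to 6.04. At 5000 UMIs 12.8% of members had a Cyct UMI (exact 95% interval 8.97% to 17.5%), beside 0.299% of Reln-rich, 1.80% of D2 and 0 of 121 glutamatergic nuclei. Without thinning the shares were 16.7%, 0.474%, 2.64% and 3.31%. In the RefSeq annotation of the GRCr8 assembly Cyct lies within the locus of Pde11a, a phosphodiesterase gene with no row under that symbol in the deposited feature lists, and the strand setting of the counting is not given in the sources used here. Reads of the 2 genes may therefore not be told apart. The other named genes higher in members were Eya2, a cofactor of transcription, Frem2, an extracellular matrix protein, Angpt1, the ligand of the Tie2 receptor, Sez6l, Zbtb7c and Ccdc187, which averaged 13.7 to 38.9 CPM in members and 1.25 to 4.85 CPM in Reln-rich nuclei.

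Genes lower in members included surface and trafficking proteins. Antxr1, a receptor for collagen and for anthrax toxin, was at 7.75, 5.78, 3.65 and 3.74 CPM in members against 38.9, 37.2, 42.5 and 72.3 CPM. Sorcs2, a sortilin-family receptor, was at 29.2 ± 6.15 against 109 ± 13.0 CPM (SD, n = 4), and the receptor kinase Alk at 28.3 ± 8.96 against 106 ± 15.5 CPM. Kif28p, a kinesin, Ccnd2 (cyclin D2), Asb2 and Skap1 followed, at 1.56 to 11.6 CPM in members and 12.7 to 59.0 CPM in Reln-rich nuclei. These genes were chosen as at least 2-fold lower in each library, so the gap between the 2 sets follows from the choice.

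The listed group with the lowest median was that of the immediate-early genes. Of 36 listed genes 17 were described, 3 were past the fold and 11 were lower in members in all 4 libraries, while 0 were higher in all 4, beside 897 lower and 1737 higher of all 9123 genes. The median log2 ratio was -0.90. Those past the fold were Fosb (2.03 against 11.0 CPM), Nr4a3, an orphan nuclear receptor (29.9 against 134 CPM), and Pcsk1, the convertase that cleaves prohormones (6.13 against 44.2 CPM). The summed level of all 36 genes was 703, 1475, 982 and 1456 CPM in members, and 1525, 3173, 1605 and 2506 CPM in Reln-rich nuclei. Members were lower than Reln-rich nuclei in each library, and the highest member sum lay below the lowest Reln-rich sum. Homer1 was a large part of these sums. Without it they were 356, 611, 463 and 662 CPM in members and 741, 1520, 719 and 1161 CPM in Reln-rich nuclei. The sets were cut by Reln, a gene of the rule. Its level in Reln-rich nuclei depends on that cut, was higher in the cocaine library of each sex and is not read as a result. The part of this cut in the difference was not tested. The remaining gated D1 nuclei were at 982 to 1305 CPM and D2 nuclei at 1117 to 1250 CPM, so members after saline were at or below the level of both. After cocaine they were above every D2 library.

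**Figure D2:**
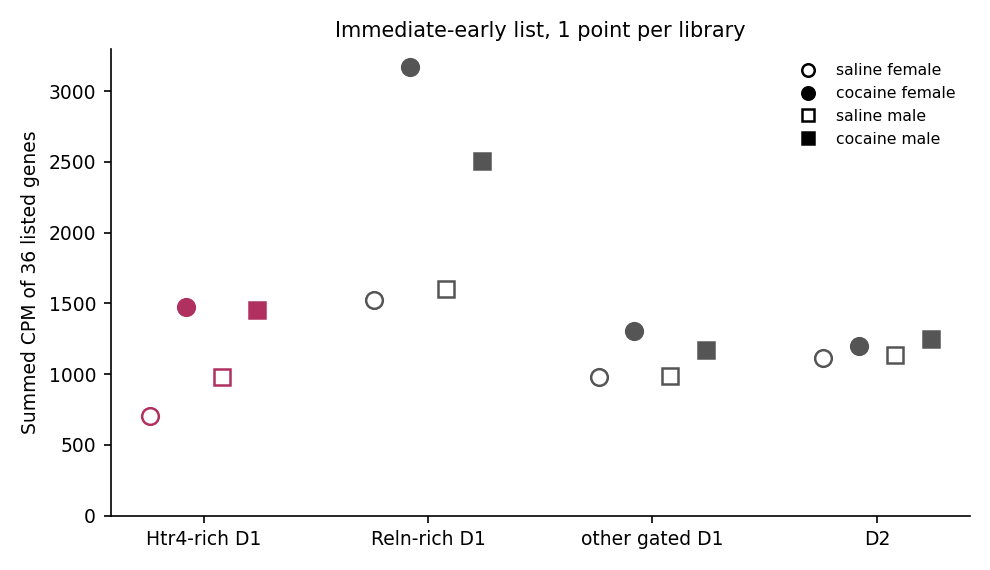
Summed CPM of the 36 genes of the immediate-early list in 4 sets of nuclei (x axis), with 1 point per library, open for saline and filled for cocaine, circles for females and squares for males. Reln-rich nuclei reach 3173 CPM, while members go from 703 and 982 CPM after saline to 1475 and 1456 CPM after cocaine.

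Several of the differences followed the Htr4 count itself. With UMIs pooled over libraries, Camk2d stood at 73.5 CPM in gated D1 nuclei with neither Htr4 nor Reln, at 118 CPM in those with 1 Htr4 UMI, and at 90.2, 164 and 262 CPM in members with 2, with 3 or 4 and with 5 or more Htr4 UMIs. Slit2 went from 123 and 154 to 161, 260 and 377 CPM over the same bands. Cyct went from 2.04 and 4.53 to 14.0, 11.8 and 81.8 CPM, and Antxr1 from 22.5 and 22.7 to 5.08, 11.8 and 1.68 CPM. The median depth of the 5 bands was 7772, 7960, 8911, 8010 and 9421 UMIs. Nuclei with 2 or more Htr4 UMIs but as many or more of Reln were near the Reln-rich level, with 12.4 CPM of Camk2d and 38.7 CPM of Antxr1. The bands share the libraries and are given as a description.

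**Figure D3:**
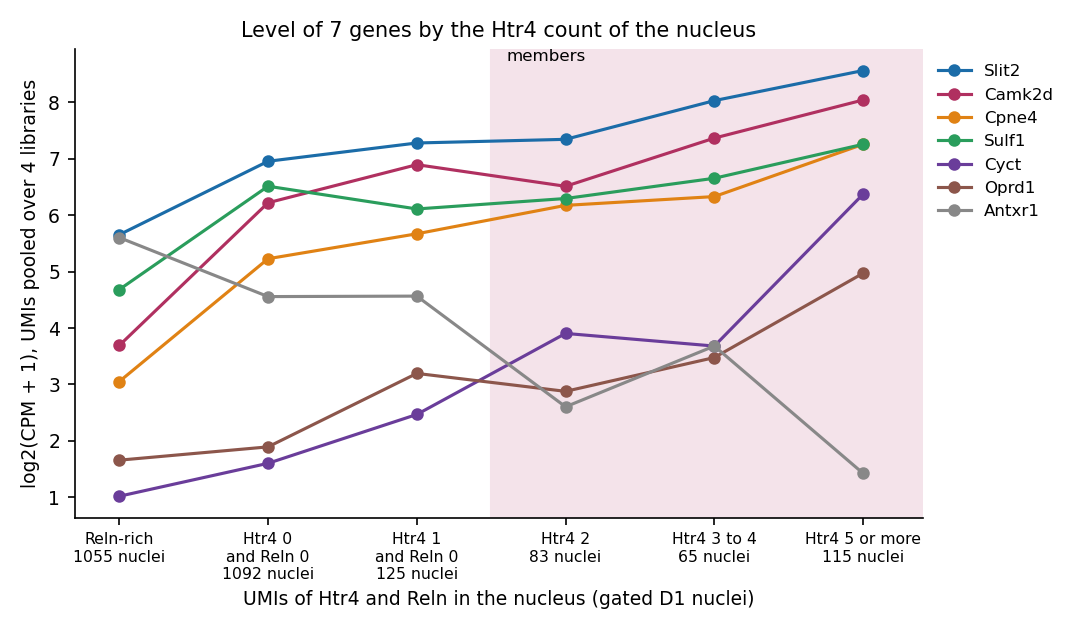
Level of 7 genes, as log2(CPM + 1) of UMIs pooled over the 4 libraries, in Reln-rich nuclei and in gated D1 nuclei ordered by their Htr4 count, with the number of nuclei under each band. The shaded bands are the members. Camk2d, Slit2, Cpne4, Cyct, Oprd1 and Sulf1 are highest, and Antxr1 lowest, in the band of 5 or more Htr4 UMIs.

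The neuropeptides of D1 neurons were present in members. Pooled over libraries, Tac1 stood at 189, 186 and 226 CPM in members with 2, with 3 or 4 and with 5 or more Htr4 UMIs. It stood at 91.0 CPM in gated D1 nuclei with neither Htr4 nor Reln and at 314 CPM in Reln-rich nuclei. Pdyn stood at 30.5, 64.2 and 49.7 CPM in the same member bands, beside 43.7 and 60.5 CPM in those 2 sets. Tac1 was detected in 184 members (70.0%), Pdyn in 79 (30.0%) and both in 58. At 5000 UMIs, Tac1 was seen in 51.6% of members, 58.1% of Reln-rich, 3.64% of D2 and 1.65% of glutamatergic nuclei. Pdyn was seen in 19.8%, 25.9%, 0.706% and 2.48% of the same sets. Of the 34 members with Nts, 24 also had Tac1. Glutamatergic nuclei, which serve here as the level of free RNA, had median depths of 10446.5 to 15855 UMIs per library. Oprm1 and Tll1, genes of the striatal patch compartment, were found together in 5 members, and of 14 patch and matrix genes described 1 (Bach2, lower) was past the fold.

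Members made up 7.66%, 9.81%, 11.8% and 7.60% of gated D1 nuclei in the 4 libraries, with exact 95% intervals of 5.60% to 10.2%, 7.75% to 12.2%, 9.54% to 14.3% and 5.86% to 9.65%. Cocaine libraries were higher in females and lower in males, so treatment did not separate them. The mean was 9.72% after saline and 8.70% after cocaine, a difference of -1.02 percentage points beside an SD between libraries of 2.33 points. With each nucleus thinned to 5000 UMIs before the gate, which left out shallower nuclei, the shares were 4.37%, 8.55%, 7.77% and 7.33% and the difference was 1.87 points. With 2 libraries per group the smallest two-sided exact permutation p is 0.333, and none is given. Htr4 made up 32.6% of the Htr4 plus Reln UMIs of gated D1 nuclei in the saline male library and 13.8% to 15.6% in the others. Reln, which the rule used, stood at 688, 1046, 608 and 998 CPM in Reln-rich nuclei; whether this moved nuclei across the gate was not tested.

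The cocaine comparison asked which genes differed between the 2 cocaine and 2 saline libraries in the UMIs summed over members. It was fitted with edgeR's quasi-likelihood test with sex as a covariate, over 7644 genes, and 18 passed at an adjusted p under 0.05 (0.235%): 9 rose and 9 fell (0.118% each). Levels in this comparison are CPM scaled by edgeR's TMM factors, and fold changes are on the log2 scale. The fit had 1 residual degree of freedom per gene and a prior of 92.0, so the spread was mostly borrowed from other genes. Nothing says that the p-values cover more than the spread between these 4 pools.

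Homer1, a scaffold of the postsynaptic density whose short form is an immediate-early transcript, was the gene that rose in the most alternatives. Its level was 357 CPM in the saline female, 893 CPM in the cocaine female, 546 CPM in the saline male and 822 CPM in the cocaine male library. Both cocaine libraries were above both saline libraries. The log2 fold change was 0.93 ± 0.13 (SE, edgeR adjusted p = 1.93e-07), with 1.31 in females and 0.61 in males. It was seen in 41 of 43, 70 of 72, 84 of 87 and 57 of 61 members, and the highest nucleus held 12 of 179, 117 of 598, 33 of 427 and 93 of 425 UMIs, the last in a nucleus that the doublet filter removed. It passed in 12 of 17 alternatives, those without any 1 library included, and stood at 0.71 on the log2 scale (edgeR adjusted p = 0.174) once the highest nucleus of each library was left out. Over the 17 alternatives its adjusted p ran from 8.41e-12 to 0.970.

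Elmo1, a partner of Dock proteins in Rac activation, was at 430, 593, 394 and 710 CPM in the same order. The cocaine libraries were again above the saline libraries, with a log2 fold change of 0.66 ± 0.13 (SE, edgeR adjusted p = 0.000918). Single nuclei weighed on this as well: 2 nuclei held 46.6% of its UMIs in the cocaine male library, the higher of them removed by the doublet filter, and 30.5% in the cocaine female library, beside 18.1% (females) and 7.47% (males) after saline. The share of members with an Elmo1 UMI was 95.3%, 88.9%, 93.1% and 82.0%, lower in each cocaine library. It passed in 6 of 17 alternatives, and its adjusted p over them ran from 8.51e-05 to 1.00. Nr4a3 was at 1.99, 71.7, 15.4 and 34.8 CPM, and its log2 fold change was 2.35 ± 0.41 (SE, edgeR adjusted p = 0.000172). The cocaine libraries were higher, but 42 of the 48 UMIs in the cocaine female library came from 1 nucleus and the gene was seen in 1, 4, 7 and 6 members.

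The other genes that rose were the peptide precursors Nts and Tac1, Ism1, a secreted protein, Pkp2, a plakophilin of cell junctions, Slc1a2, and a gene known only as ENSRNOG00000067693. Tac1 was at 108, 218, 215 and 308 CPM, a log2 fold change of 0.72 ± 0.17 (SE, edgeR adjusted p = 0.0173). The cocaine female level lay close to the saline male level, so the groups were separated only narrowly. Tac1 passed in 4 of 17 alternatives. Nts was at 29.9, 152, 28.2 and 40.6 CPM, and its log2 fold change was 1.56 ± 0.30 (SE, edgeR adjusted p = 0.00112). Here the cocaine female library stood apart, and without it the fold change was 0.49 (edgeR adjusted p = 1.00). Ism1 had 56 of its 83 cocaine female UMIs in the nucleus that also held the most Homer1, Nr4a3, Nts, Tac1 and Pkp2 of that library, a nucleus of 13384 UMIs with 3 Drd1, 0 Ebf1, 17 Rgs9, 0 Foxp2 and 45 Erbb4 UMIs.

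The promoters of Nts and Tac1 are shown because both peptide genes passed with the same sign, and cyclic AMP response elements (CRE) are bound by CREB, a factor downstream of D1 receptors. RefSeq promoters of the GRCr8 assembly, 250 bases before to 50 after the start, were matched for 6 of the 8 named genes that rose. They were searched on both strands for the CRE motif TGACGTCA and for its shorter form TGACG, which lies within it. The full motif was in 0 of the 6 and in 1.83% of all 33469 promoters of that length. The shorter form was in 2 of the 6, Nts and Tac1, and in 21.2% of all promoters. Capitals mark the match, which reads on the opposite strand in both, and begins 171 bases before the start of Nts (chr7:39460839-39461138, minus strand) and 206 before that of Tac1 (chr4:36645333-36645632, plus strand).
Nts: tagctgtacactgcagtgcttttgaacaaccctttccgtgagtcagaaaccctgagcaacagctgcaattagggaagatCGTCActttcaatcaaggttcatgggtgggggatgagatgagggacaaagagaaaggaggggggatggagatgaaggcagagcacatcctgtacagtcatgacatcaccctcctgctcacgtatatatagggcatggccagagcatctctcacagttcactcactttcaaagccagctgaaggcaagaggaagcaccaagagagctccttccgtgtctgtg
Tac1: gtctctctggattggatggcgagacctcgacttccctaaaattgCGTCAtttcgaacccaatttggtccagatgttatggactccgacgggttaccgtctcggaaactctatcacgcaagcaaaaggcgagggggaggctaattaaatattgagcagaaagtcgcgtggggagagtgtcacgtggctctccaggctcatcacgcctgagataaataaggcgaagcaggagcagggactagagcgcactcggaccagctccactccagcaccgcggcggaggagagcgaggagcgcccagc
A match of these letters is a description of the sequence and not a measured binding site.

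Slc1a2 encodes a glutamate transporter that is abundant in astrocytes. It was at 19.9, 68.7, 7.68 and 25.2 CPM, a log2 fold change of 1.74 ± 0.38 (SE, edgeR adjusted p = 0.00889), and 34 of 46 cocaine female UMIs lay in 1 nucleus. The 3 astrocyte markers Aqp4, Gja1 and Slc1a3 summed to 9.69, 17.3, 7.30 and 26.2 CPM in the members of the same libraries, with Aqp4 at 0 in both saline libraries. They were higher in the cocaine libraries, as Slc1a2 was, and their part in this result was not tested.

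Most genes that fell did so from a few nuclei with very high saline counts. Nxph1, a ligand of neurexins, had 25, 1, 297 and 1 UMIs, a log2 fold change of -6.68 ± 0.44 (SE, edgeR adjusted p = 2.85e-23). All 25 UMIs of the saline female library were in 1 nucleus, and 239 of 297 in the saline male library were in the Erbb4-high nucleus described above. That nucleus also held 180 of 221 Il1rapl2, 184 of 380 Pcdh15, 310 of 915 Grip1, 66 of 87 Kcnip1, 31 of 56 Cdh20, 15 of 38 Dner and all 51 ENSRNOG00000012428 UMIs of its library. With at least 2 Rgs9 UMIs required of every nucleus, which left 240 members, Kcnip1 was at a log2 fold change of -0.55, Grip1 at -0.16, Pcdh15 at -0.21 and Il1rapl2 at -0.33, and none of them passed. Fbxl7, an F-box protein, rested on more nuclei, the highest holding 15.2% (saline female) and 8.22% (saline male) of its UMIs. For Dner, a Notch ligand, 2 nuclei held 46.2% and 47.4% of the UMIs in the same libraries. Dner was at 104, 20.9, 48.6 and 17.4 CPM (log2 fold change -1.98 ± 0.33, edgeR adjusted p = 5.66e-05) in 13, 8, 15 and 8 members. Fbxl7 was at 65.8, 38.8, 93.4 and 25.2 CPM (-1.29 ± 0.30, edgeR adjusted p = 0.0173) in 15, 18, 28 and 10 members. For both genes each saline library was above each cocaine library. Cdh20 was at 87.7, 26.9, 71.7 and 23.2 CPM (-1.66 ± 0.31, edgeR adjusted p = 0.000505). Of its saline UMIs, 2 nuclei held 68.2% (females) and 69.6% (males). Dner and Cdh20 each passed in 8 of 16 alternatives and Fbxl7 in 4 of 17, and none passed with at least 2 Rgs9 UMIs required. In D2 nuclei Nxph1 (-1.28), ENSRNOG00000012428 (-0.92), Cdh20 (-0.76), Dner (-0.68), Kcnip1 (-0.57) and Il1rapl2 (-0.56) also fell (edgeR adjusted p of 0.00171 or less). Pcdh15, Grip1 and Fbxl7 did not pass there. In Reln-rich nuclei no fallen gene that was tested passed.

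**Figure D4:**
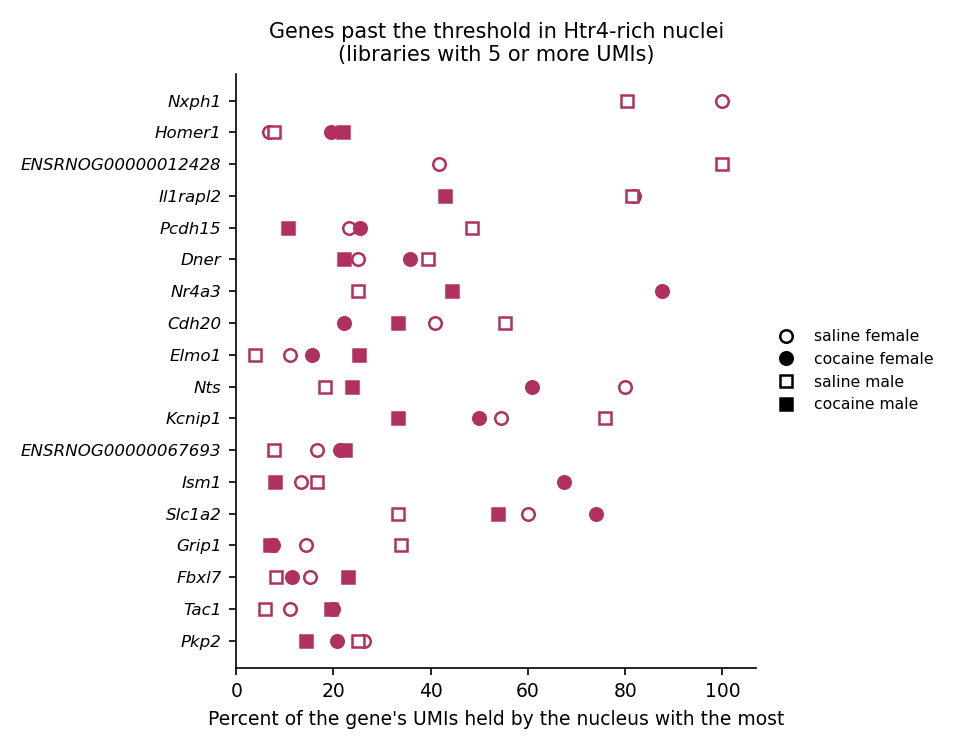
Percent of a gene's UMIs held by the member with the most, for the 18 genes past the threshold, in each library with 5 or more UMIs of the gene. Nxph1, Il1rapl2, Kcnip1 and ENSRNOG00000012428 have over 70% in 1 saline male nucleus, while Homer1, Elmo1 and Tac1 stay under 30% in every library.

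The number of calls depended on single nuclei and libraries. Of the 18 genes, Homer1 and Nxph1 passed in all 4 fits that left out 1 library, and each other gene passed in 1 to 3 of them. With the highest nucleus of each gene left out of each library, 0 of 7061 genes passed in edgeR, with 360 at an unadjusted p under 0.05, and DESeq2 on all members called 1. With at least 2 Rgs9 UMIs in each nucleus 1 gene passed, Homer1, and with putative doublets removed 1 passed, Nxph1. In Reln-rich nuclei the same test called 133 of 10835 genes (1.23%), 105 higher (0.969%) and 28 lower (0.258%), and 198 passed without the highest nucleus of each gene. With as many Reln-rich nuclei drawn as there were members in each library, 10 were higher and 4 lower of 7192. On simulated counts for the member sums the test recovered 29.2% of 2-fold and 90.1% of 4-fold changes. Most 2-fold changes were thus missed even there. The simulation gave every gene the same dispersion and did not model single nuclei with extreme counts. Its rates may therefore not hold for these data.

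By list, 7 of the 36 immediate-early genes had enough UMIs to be tested in members, 2 passed (Homer1 and Nr4a3) and 5 were above 0, with a median log2 fold change of 0.55 beside -0.00029 over all genes tested. In Reln-rich nuclei 25 of the 36 were tested and 10 rose, with a median of 0.63. Spred1, Crem and Junb were at 0.48, 0.65 and 0.55 (edgeR adjusted p = 0.492, 0.868 and 0.879), and Scg2 and Vgf at -0.23 and -0.47 (edgeR adjusted p = 0.989 and 0.978). Of 5 neuropeptide genes tested, Nts and Tac1 passed. Pdyn, Penk and Cartpt were at 0.54, 0.48 and -0.55 and did not (edgeR adjusted p = 0.885, 0.969 and 0.921). Of 33 dopamine and cyclic AMP genes, 31 axon guidance genes, 13 glutamate receptor genes and 5 other serotonin receptor genes, 0 passed. Over all genes tested 0.235% passed, so these counts of 0 are not read as results. All 5 serotonin receptor estimates were below 0, Htr2c at -0.39 (edgeR adjusted p = 0.533), but only 3 of the 5 were lower in both sexes. Of the 4 listed markers, Sulf1, Trhde and Fstl4 were at 0.19, -0.34 and 0.06 and did not pass (edgeR adjusted p = 0.981, 0.969 and 0.996).

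**Figure D5:**
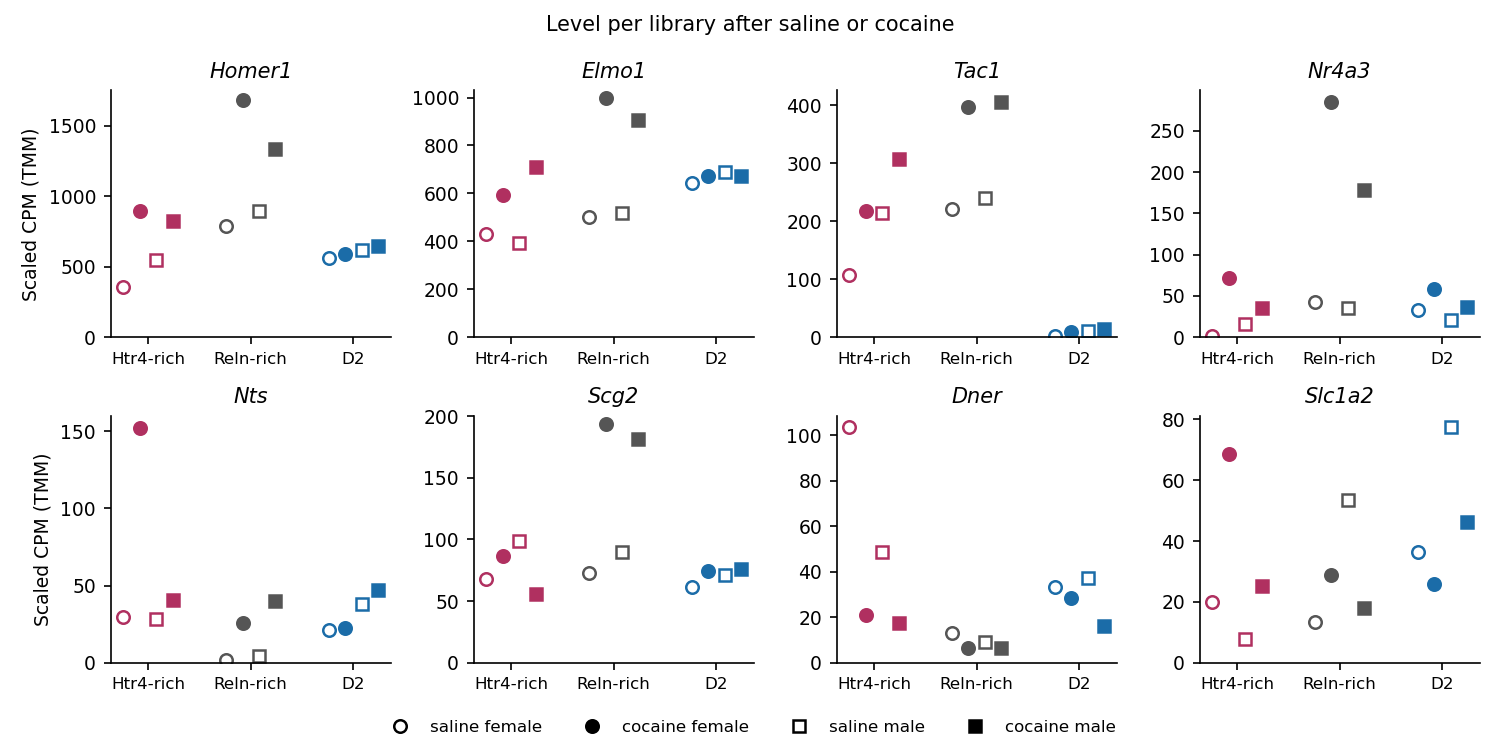
TMM-scaled CPM of 8 genes in Htr4-rich, Reln-rich and D2 nuclei, 1 point per library, open for saline and filled for cocaine. Homer1 in Htr4-rich nuclei is at 357 and 546 CPM after saline and at 893 and 822 CPM after cocaine, while Scg2 passed the test in Reln-rich nuclei and not in the others.

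The response of members was set against that of Reln-rich nuclei by an interaction term over 10480 genes, and 0 passed (0.0%), with 475 at an unadjusted p under 0.05. On counts simulated in the same way as above this term recovered 7.0% of 2-fold and 62.0% of 4-fold differences. The absence of calls therefore does not show that the responses are alike. The smallest p was that of Scg2, a granin of secretory vesicles. Scg2 was at 67.7, 86.6, 98.5 and 56.1 CPM in members, and the log2 fold change was -0.23 ± 0.25 (SE) in members and 1.22 ± 0.12 in Reln-rich nuclei (edgeR adjusted p = 0.989 and 1.37e-07). The difference was -1.41 ± 0.25 (edgeR adjusted p = 0.171). Of the 77 saline male UMIs of Scg2 in members, 24 lay in 1 nucleus. Nxph1, which rests on the few nuclei described above, had the same adjusted p, with a difference of -6.90 ± 1.24. Homer1 had close estimates in both sets, 0.93 and 0.84, with a difference of 0.11 ± 0.16. Elmo1, Nr4a3, Tac1, Ism1, Pkp2 and ENSRNOG00000067693 also rose in Reln-rich nuclei, at 0.90, 2.58, 0.80, 0.79, 0.85 and 1.04. Each passed there (edgeR adjusted p of 0.00428 or less), while Slc1a2, at -0.39, did not. The rise of these genes was thus not particular to members. Nts was at 1.56 ± 0.30 in members and 3.52 ± 0.31 in Reln-rich nuclei, a difference of -1.73 ± 0.82 (edgeR adjusted p = 1.00).

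Against D2 nuclei the interaction passed for 5 of 12330 genes (0.0406%), 3 of them more positive (0.0243%) and 2 more negative (0.0162%) in members. In D2 nuclei alone, 177 of 12755 genes passed (1.39%), 83 higher (0.651%) and 94 lower (0.737%). Of the genes that rose in members, Nr4a3, Tac1 and Pkp2 also rose there past the threshold, at 0.83, 0.79 and 0.53. Homer1 was at 0.07 ± 0.07 (SE) in D2 nuclei, and the difference was 0.87 ± 0.14 (edgeR adjusted p = 0.00566). Homer1 in D2 nuclei stood at 562, 593, 618 and 649 CPM, with saline and cocaine close within each sex. ENSRNOG00000067693 differed by 1.50 ± 0.25 (edgeR adjusted p = 0.00566). Slc1a2, Nxph1 and Pcdh15 differed by 2.75, -5.81 and -0.93 (edgeR adjusted p = 0.0356, 0.00989 and 0.0313), and these 3 rest on the few nuclei described above. With at least 2 Rgs9 UMIs in each nucleus 0 passed, 482 were at an unadjusted p under 0.05, and Homer1 was at 0.88 (edgeR adjusted p = 0.0593). Without the cocaine female library 0 passed as well, and Homer1 was at 0.72 (edgeR adjusted p = 0.960).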

How the data were processed

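For each of 4 libraries the authors deposited UMI counts for every gene in every nucleus, as whole numbers without normalization, made with Cell Ranger 6.1.2 per the file headers. The genome build was rn7 per the submitters' processing notes; the sources used here give no annotation, intron or strand setting. No nucleus was removed as a doublet in the main analysis. In an alternative, nuclei over 5% mitochondrial UMIs (4) and the highest Scrublet scores (scanpy 1.11.5, 0.8% per 1000 nuclei) were removed, 26 members (9.89%) among them.

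Counts were summed per library and set, with libraries as the replicates. CPM are per 1000000 UMIs of the set. Log2 ratios between sets had 0.5 UMI added. The cocaine tests used edgeR 4.0.16 (quasi-likelihood, TMM, filterByExpr, R 4.3.3) with sex as covariate and Benjamini-Hochberg adjustment over all genes tested, and DESeq2 1.42.0 as an alternative; the differences between sets were the interaction of set and treatment with library terms. The tests were tried on simulated sums with the same dispersion for every gene. Thinning drew 5000 UMIs per nucleus. Intervals are exact binomial and, like floors, cover counting error only.

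Named genes were, for the description, the listed markers and the 15 higher and 12 lower genes with the largest smallest ratio (1 of the 12 is not reported here), and under cocaine up to 12 higher and 8 lower genes of smallest adjusted p with 1 sign in both sexes, list members past the threshold and D1 role genes. Il1rapl2 and the 2 genes known by identifier only were added after their values were seen, as was the account of the Erbb4-high nucleus. Alternatives were other size factors, filters, gates, depths and covariates, a robust prior, and leaving out each library. The members, lists and rule were chosen with earlier results of these data known. Libraries were grouped by treatment as labelled; each is a pool of 4 rats.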

Additional observations from a re-analysis of the deposited data

Results flagged for a closer look

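The cocaine response differed between Htr4-rich D1 and D2 nuclei by the interaction test for 5 genes. The log2 difference was 0.87 for Homer1, 1.50 for ENSRNOG00000067693 and 2.75 for Slc1a2, and it was -5.81 for Nxph1 and -0.93 for Pcdh15. Homer1 and ENSRNOG00000067693 were spread over many members in every library. For Nxph1 and Pcdh15 the saline male value came largely from 1 nucleus with 430 Erbb4 UMIs, and for Slc1a2 the cocaine female value came largely from another.

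Il1rapl2 passed the test in members although the sexes had opposite signs, with log2 ratios of cocaine over saline of 1.90 in females and -4.26 in males. The difference between the sexes was not tested, since each sex had 1 library per treatment. Its UMIs numbered 4, 22, 221 and 7, and 180 of the 221 lay in the nucleus with 430 Erbb4 UMIs.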

How the results depend on the processing

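The number of genes called for cocaine in members, 18, depended on most choices. It was 1 with no filter on low counts, 1 in DESeq2 (14 at an unadjusted p under 0.05), 0 without the sex covariate (279 at an unadjusted p under 0.05), 3 with a stricter gate, 41 with a looser gate, 1 with putative doublets removed, 8 with equal nuclei per library and 2 after thinning to 5000 UMIs. Leaving out 1 library at a time gave 8 to 37 calls: 32 without saline female, 8 without cocaine female, 37 without saline male and 26 without cocaine male, where the lone library of a treatment is assumed to vary like the others and sex is not fitted. Among alternatives chosen after seeing the data, there were 8 calls in members with no Reln UMI, 0 without the highest nucleus of each gene, 1 with at least 2 Rgs9 UMIs, and 14 in Reln-rich nuclei drawn to the number of members. The difference from Reln-rich nuclei gave 11 calls with no filter, 4 with a looser gate and 1 to 21 without 1 library. The difference from D2 nuclei gave 0 with at least 2 Rgs9 UMIs and 0 to 24 without 1 library, being 0 without cocaine female. The share difference became 1.87 points after thinning. Il1rapl2 ran from -3.52 to 1.56 without 1 library and reversed without saline male, and Grip1 reversed to 0.015 after thinning. The causes were not tested beyond the counts per nucleus given above. RLE size factors kept all 18 calls in members. The identity description gave 97 higher and 23 lower genes, and 118 and 37 with the stricter gate, 93 and 20 with the looser gate, 114 and 27 without putative doublets and 137 and 19 after thinning, where 72 of the 97 and 10 of the 23 were shared. The labels carry no replicate numbers, so libraries could be paired only by sex. The sex term of the main test does this by setting the 2 libraries of a sex side by side, and the calls without it are given above. The depth of 43 to 87 members per library limits what a fold change near 2 can show.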
